A study of Mus musculus with 12 samples.

Results

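Dense H4K20me3 windows are 1 Mb stretches of the mouse autosomes that hold an unusually large number of separate H4K20me3 domains. Chromosomes 1 to 19 were divided into fixed windows of 1 Mb from base 0 of the mm10 build, each domain that starts beyond the first 3 Mb was assigned by its midpoint, and a window with 30 or more domains was called dense; members were thus chosen by the domain count of their window. Of 2413 windows, 45 were dense (1.86%), and their 1507 domains are the members described here. They were 5.86% of the 25730 autosomal domains and 5.34% of the 28210 domains in the whole list. Domain counts, widths, spacing and coverage below are descriptions of one list, with no test and no replicate error.

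The study mapped H4K20me3 by ChIP-seq in dTKO, a line of mouse embryonic stem cells, with the genotype Suv39h1fl/fl; Suv39h2-/-; Setdb1fl/fl in every group. All groups are labelled + auxin + dTAG13, compounds that drive the degradation of proteins carrying the matching tags, and the 4 sampling times were 0, 12, 24 and 48 h (3 replicates each). No label says how the degradable proteins are expressed or whether the line is a single clone. The domain list names no time or replicate, so nothing here is a comparison of times, and the depth behind each domain is unknown.

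H4K20me3 is a histone mark of constitutive heterochromatin. In the textbook pathway, SUV39H1, SUV39H2 and SETDB1 methylate H3K9, HP1 proteins bind that mark, and the SUV4-20H enzymes recruited by HP1 trimethylate H4K20. In embryonic stem cells these marks are known for pericentromeric repeats, retrotransposons and clustered zinc finger genes. The genes of this pathway that stand in the genotype lay outside dense windows: the window of Suv39h2 held 13 domains, that of Setdb1 11 and, on X, that of Suv39h1 21.

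Most annotated starts in dense windows lay outside the domains, so the exceptions are printed first. RefSeq promoter stretches of 300 bases (250 before to 50 after the start, build GRCm38.p6, which is mm10) were at hand for 446 starts of 383 genes in dense windows. Of these, 23 lay wholly inside a domain (5.16%), against 1.48% of 31396 autosomal stretches. The rule itself raises this share, since domains took 17.2% of the length of dense windows and 4.24% of all windows. Nothing is read from the difference. The 23 stretches belonged to 21 genes, 12 of them long noncoding RNA genes and 9 protein-coding. The 7 protein-coding genes of a named family are printed here, 5′ to 3′ on the strand of the gene, with CpG dinucleotides, the sites of DNA methylation, in capitals.
Cyp2c40: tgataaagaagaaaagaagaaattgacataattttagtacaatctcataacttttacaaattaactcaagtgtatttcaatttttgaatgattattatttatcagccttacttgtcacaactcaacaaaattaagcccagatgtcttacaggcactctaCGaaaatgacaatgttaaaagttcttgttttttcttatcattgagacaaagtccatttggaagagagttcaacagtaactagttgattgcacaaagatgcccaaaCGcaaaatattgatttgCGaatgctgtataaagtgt
Cyp2c69: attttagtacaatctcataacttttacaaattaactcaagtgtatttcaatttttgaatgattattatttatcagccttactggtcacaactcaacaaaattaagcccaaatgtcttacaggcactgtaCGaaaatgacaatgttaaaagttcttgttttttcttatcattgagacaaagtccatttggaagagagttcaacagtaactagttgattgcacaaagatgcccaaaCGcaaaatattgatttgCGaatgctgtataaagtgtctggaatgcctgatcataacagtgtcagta
Cyp4a29: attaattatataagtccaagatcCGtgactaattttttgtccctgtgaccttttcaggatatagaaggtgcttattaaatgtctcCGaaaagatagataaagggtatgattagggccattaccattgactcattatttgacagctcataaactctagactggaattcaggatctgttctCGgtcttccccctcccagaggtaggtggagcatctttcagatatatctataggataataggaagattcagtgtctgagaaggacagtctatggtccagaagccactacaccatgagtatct
Cyp2a4: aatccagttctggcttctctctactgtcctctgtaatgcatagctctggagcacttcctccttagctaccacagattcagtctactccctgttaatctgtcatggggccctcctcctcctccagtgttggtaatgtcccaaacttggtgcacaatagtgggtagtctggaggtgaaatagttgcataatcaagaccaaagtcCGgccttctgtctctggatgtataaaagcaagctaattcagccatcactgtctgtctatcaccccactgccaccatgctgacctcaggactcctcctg
Nlrp9c: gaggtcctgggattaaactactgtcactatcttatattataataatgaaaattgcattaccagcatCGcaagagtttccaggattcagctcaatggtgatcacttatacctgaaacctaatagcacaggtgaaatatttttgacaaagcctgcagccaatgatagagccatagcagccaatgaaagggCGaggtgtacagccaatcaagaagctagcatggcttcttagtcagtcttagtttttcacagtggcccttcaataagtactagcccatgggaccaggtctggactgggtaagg
Vmn2r12: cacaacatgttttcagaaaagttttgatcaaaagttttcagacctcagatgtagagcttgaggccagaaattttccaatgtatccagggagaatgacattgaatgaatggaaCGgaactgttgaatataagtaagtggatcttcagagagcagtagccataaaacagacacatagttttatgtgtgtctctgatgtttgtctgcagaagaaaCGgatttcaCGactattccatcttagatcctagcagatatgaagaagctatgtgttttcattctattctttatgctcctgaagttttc
Olfr514: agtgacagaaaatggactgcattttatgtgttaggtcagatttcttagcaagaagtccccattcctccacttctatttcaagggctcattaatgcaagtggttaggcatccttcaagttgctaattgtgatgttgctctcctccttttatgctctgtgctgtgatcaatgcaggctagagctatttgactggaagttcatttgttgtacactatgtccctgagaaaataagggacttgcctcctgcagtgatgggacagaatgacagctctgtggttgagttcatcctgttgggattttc

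The first 4 belong to cytochrome P450 genes, which encode oxidising enzymes of drug, steroid and fatty acid metabolism. Cyp2c40 (chr19:39812765-39813064, minus strand) and Cyp2c69 (chr19:39886720-39887019, minus strand) lay in separate domains of 19.65 and 24.6 kb. Cyp4a29 (chr4:115241794-115242093, plus strand) lay in a domain of 15.3 kb and Cyp2a4 (chr7:26306942-26307241, plus strand) in one of 3.45 kb. Nlrp9c (chr7:26403651-26403950, minus strand), of a family expressed in oocytes, lay in a domain of 9.15 kb. The stretches of the vomeronasal receptor Vmn2r12 (chr5:109097815-109098114, minus strand) and the olfactory receptor Olfr514 (chr7:108825948-108826247, minus strand) lay in domains of 5.25 and 8.4 kb.

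These stretches were poor in CpG, with 3 in Cyp2c40, Cyp2c69, Cyp4a29 and Vmn2r12, 2 in Nlrp9c, 1 in Cyp2a4 and 0 in Olfr514. The 23 stretches inside domains had a median of 3 CpG and the other 423 of dense windows a median of 2, against 7 for all autosomal stretches. Starts of dense windows were thus poor in CpG both inside and outside domains. TATAAA, read on both strands, stood in 6 of the 23 stretches and in 131 of the 423 (26.1% of the former), against 13.6% of all autosomal stretches. The 2 Cyp2c stretches aligned over 270 bases with 98.9% identity. The authors' handling of reads that match near-identical copies was not stated, and its part in the calls over these genes was not tested.

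Gene-cluster windows made up a larger share of dense windows than of all windows, and gene-poor windows a similar share of both. A gene-cluster window held 5 or more protein-coding genes of 1 of 30 listed families, and a gene-poor window held 0 to 2 protein-coding genes. Of the 45 dense windows, 18 were gene-cluster windows (40.0%; 95% exact binomial interval 25.7 to 55.7%), 16 were gene-poor (35.6%; 21.9 to 51.2%) and 11 were neither (24.4%; 12.9 to 39.5%). Among all autosomal windows these classes made up 6.22, 31.5 and 62.3%. Seen from the other side, 12% of the 150 gene-cluster windows were dense, against 2.11% of the 760 gene-poor windows and 0.732% of the 1503 others. These intervals treat windows as independent, which neighbouring windows are not. The family lists were also chosen with earlier results of these data known, so the gene-cluster shares are descriptions only.

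**Figure D1:**
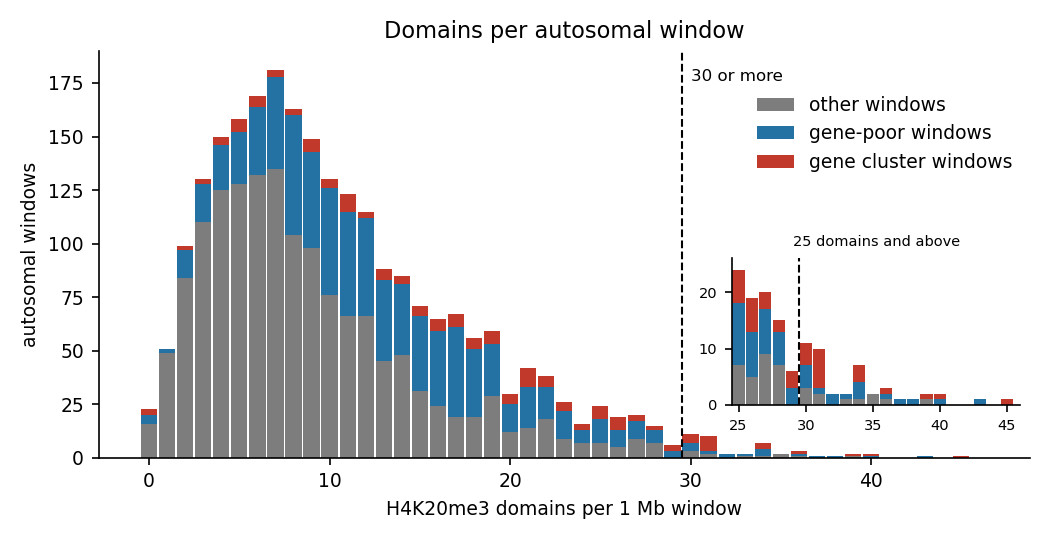
Number of autosomal 1 Mb windows (y axis) by the number of H4K20me3 domains they hold (x axis), coloured by gene content, with the windows of 25 domains and above enlarged in the inset; the dashed line marks the threshold of 30. Of the 45 windows to the right of the line, 18 are gene-cluster windows and 16 are gene-poor.

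The share of gene-cluster windows was larger in each class of domain count up to 34, whereas that of gene-poor windows differed little above 10 domains. Gene-cluster windows were 2.67% of the 1273 windows with 0 to 9 domains, 6.05% at 10 to 19, 17.1% at 20 to 24, 23.8% at 25 to 29 and 43.8% at 30 to 34. At 35 to 45 domains they were 4 of 13 windows (30.8%). Gene-poor windows were 20.3% of the sparsest class and stood between 34.4 and 44.7% in every class of 10 domains or more. Around the threshold, 15 windows had 28 domains, 6 had 29, 11 had 30 and 10 had 31. The 21 windows just outside it had a median of 11.6% of their length in domains and the 21 just inside 14.3%.

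The 2 major urinary protein windows were among the 3 gene-cluster windows with most domains. Mup genes encode small proteins that carry pheromones in urine. They adjoin on chromosome 4, with 45 domains between 60 and 61 Mb and 39 between 61 and 62 Mb. Of the 22 listed autosomal Mup genes, 18 lay in these 2 windows, yet only Mup5 met a domain, over 2.25% of its body, whereas 2 of the 4 elsewhere did. The other 17 lay 1.35 to 18.9 kb from the nearest one. In 5 of them, Mup6, Mup7, Mup1, Mup22 and Mup13, that distance was 10.5 to 10.8 kb, so part of the array showed a repeated spacing between gene and domain. The array also carried the 2 widest members, of 68.1 kb (chr4:61343851-61411950) and 49.95 kb (chr4:60308551-60358500), which overlapped no annotated gene. Mup-ps12, annotated as protein-coding despite its name, spanned 97.9 kb and met 4 domains over 17.5% of its length.

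Few defensin genes met a domain either, and coverage was lower. Defa genes encode antimicrobial peptides of Paneth cells in the gut. The chromosome 8 window from 21 to 22 Mb contained 38 of the 71 autosomal defensin genes and 31 domains, which took 9.99% of it, the smallest share of any dense window. Only Defa-ps8, a 1.33 kb gene inside a domain, met one (1 of 38, 2.63%), against 5 of 33 defensin genes elsewhere (15.2%), which had a median length of 3.2 kb against 0.979 kb here. Gm15313, a gene of the same length outside the family list, also lay wholly in a domain of this window. The 38 genes include Defb as well as Defa genes. Over all 38 the median distance to a domain was 10.4 kb and the largest, that of Defb1, 63.3 kb. The windows on either side held 1 and 4 domains. The domains of this window thinned out before its far border, with a gap of 152.55 kb that began 713.25 kb from its first base.

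**Figure D2:**
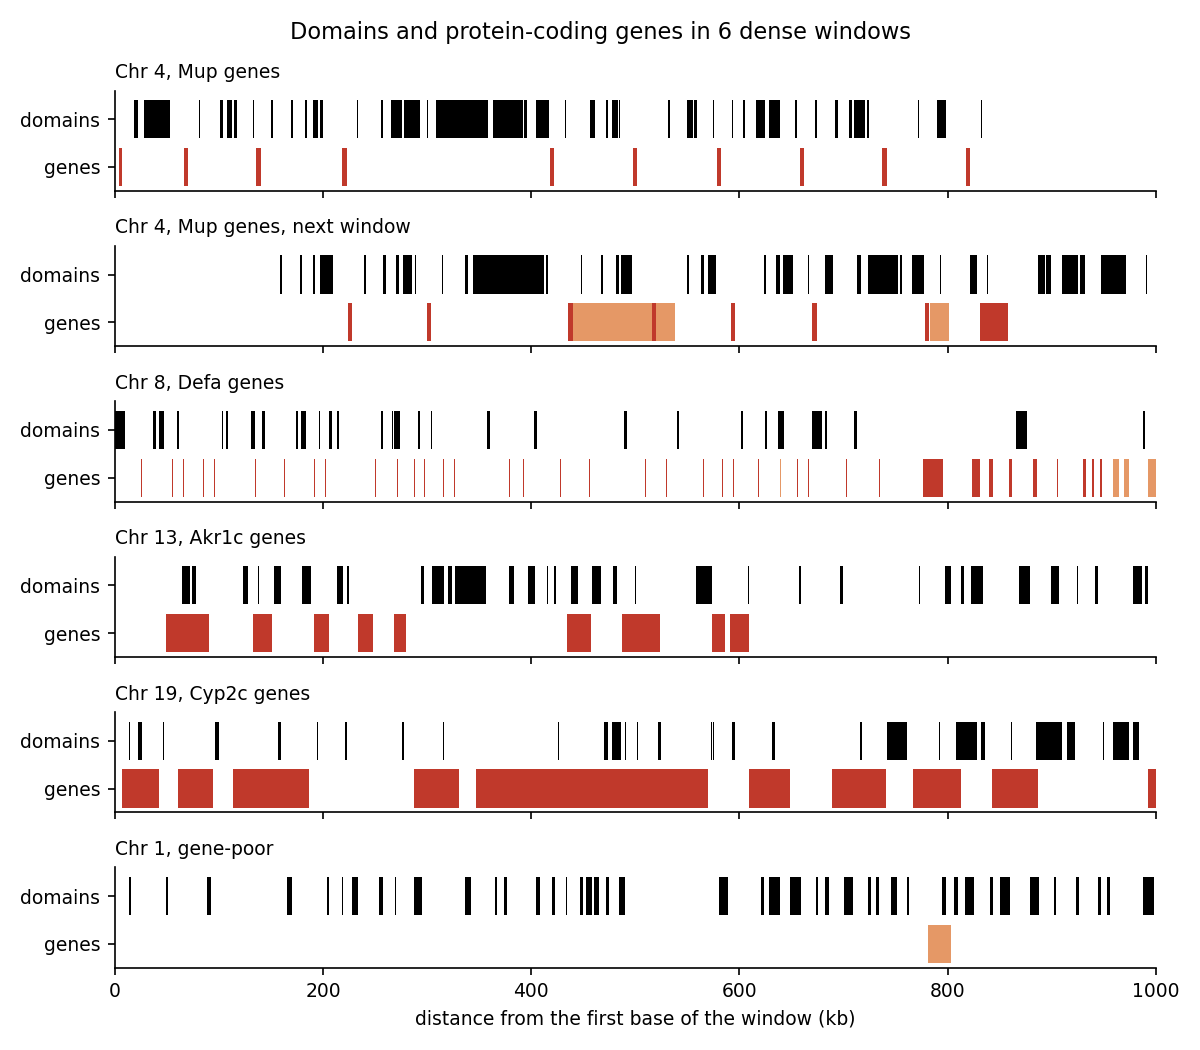
Positions of H4K20me3 domains (black) and protein-coding genes (red, listed families; orange, other genes) in 6 dense windows, against the distance in kb from the first base of each window. Domains fall mostly between the Mup and defensin (Defa and Defb) genes, of which 1 of 18 and 1 of 38 met a domain, and overlap 9 of 10 Cyp2c genes.

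Cytochrome P450 genes met domains more often than any other family with 5 or more genes in dense windows. Of 98 autosomal P450 genes, 35 lay in 4 dense windows and 21 of them met a domain (60%), against 16 of 63 elsewhere (25.4%). The rule itself raises the share met in dense windows, in this and the other families. Nothing is read from a higher share there than elsewhere. The median gene length was 27.8 kb in dense windows and 15.9 kb elsewhere. The Cyp2c window on chromosome 19 (39 to 40 Mb) had 30 domains, and 9 of its 10 Cyp2c genes met one, over 1.63 to 13.8% of the gene. Cyp2c55 was covered over 13.8%, Cyp2c40 over 11.1% and Cyp2c39 over 8.10% by 6 domains. Cyp2c65, the exception, lay 1.90 kb from a domain.

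The other 3 P450 windows differed among themselves. On chromosome 4 (115 to 116 Mb), 6 of 10 Cyp4 genes met a domain, led by Cyp4a32 (26.4% covered), Cyp4a29 (17.4%) and Cyp4a30b (17.0%); Cyp4 enzymes hydroxylate fatty acids. On chromosome 5 (145 to 146 Mb), 4 of 7 Cyp3a genes did, with at most 10.8% covered in Cyp3a44. On chromosome 7 (26 to 27 Mb), 2 of 8 did, Cyp2a4 (26.1%) and Cyp2b23 (14.7%), although this window had 22.4% of its length in domains, more than the other 3. Among these 4 windows, the one with the most domain sequence thus had the smallest share of its family met. Its P450 genes were also the shortest, with a median of 13.9 kb. The medians were 20.3 kb in the chromosome 4 window, 31.9 kb on chromosome 5 and 44.9 kb on chromosome 19. The part of gene length was not tested.

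Aldo-keto reductase genes, which encode enzymes of steroid and aldehyde reduction, were the only protein-coding genes of the chromosome 13 window from 4 to 5 Mb. It held 34 domains and 9 of the 17 autosomal members. Of these, 5 met a domain (55.6%, against 1 of 8 elsewhere): Akr1c6 (30.4% covered), Akr1c14 (26.7%), Akr1e1 (4.79%), Akr1c20 (3.29%) and Akr1c18 (0.832%). A domain of 29.7 kb (chr13:4326901-4356600) lay between the genes and overlapped none.

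Vomeronasal receptors divided by type. Vmn1r genes are short, and of 33 in 4 dense windows only Vmn1r208 met a domain, over 0.152 kb of its 0.927 kb. That was 3.03%, against 9 of 195 elsewhere (4.62%). The chromosome 13 window from 22 to 23 Mb held 24 of them among 40 domains, and all but that 1 lay up to 38.3 kb from a domain. Its 5 histone genes, which package newly replicated DNA, met none and were a median of 70.6 kb away. Vmn2r genes are longer, and 10 of 27 in dense windows met a domain (37.0%), against 29 of 94 elsewhere (30.9%). Vmn2r11 was covered over 53.5%, Vmn2r12 over 37.6%, Vmn2r97 over 34.2% and Vmn2r60 over 23.5% by 4 domains.

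Olfactory receptors, the most numerous listed family, had 34 of 1103 genes in dense windows (3.08%), against 1.95% of all autosomal protein-coding genes. Of 53 windows with 5 or more of these genes, 1 was dense, near the share of all windows, on chromosome 7 from 108 to 109 Mb. It held all 34 receptor genes and 34 domains, and only Olfr506 (100% covered) and Olfr514 (90.8%) met one (5.88%, against 2.71% of those elsewhere). The median count over the 53 windows was 17 domains. For comparison, the 17 windows with Vmn1r clusters had a median of 22, the 11 with Vmn2r clusters 25 and the 7 with P450 clusters 30. Keratin windows had a median of 5.5 over 6 windows, below the autosomal median of 9.

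Zinc finger genes, taken by symbol and including repressors of retrotransposons, were met in 9 of 21 cases in dense windows (42.9%) and in 61 of 408 elsewhere (15.0%). The rule itself raises the first of these shares. Zfp996 was covered over 91.6%, Zfp640 over 67.7%, Zfp977 over 58.6% and Zfp951 over 52.8%. Only 1 of the 22 windows with 5 or more such genes was dense, on chromosome 17 from 22 to 23 Mb. Zfp996, Zfp640 and Zfp951 lay in dense windows with fewer than 5 genes counted this way. Genes with Gm, LOC or Rik symbols were not counted as zinc finger genes, whatever they encode. Zinc finger clusters under such symbols can thus be missed here and among the windows of neither class.

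Smaller families had fewer members in dense windows. Among pregnancy-specific glycoprotein and Ceacam genes on chromosome 7 (18 to 19 Mb), 4 of 13 met a domain, led by Psg20 (34.2%) and followed by Psg23, Psg18 and Psg28 (17.3, 16.1 and 12.8%). Among Scgb genes of secreted androgen-binding proteins (33 to 34 Mb), 1 of 13 did, Scgb2b21 (10.8%). Pramel47 (15.9%) was the 1 of 6 members met in the Pramel window of chromosome 5 (95 to 96 Mb). Nlrp9c (20.3%, 3 domains) and Nlrp4b (9.20%) were met among 5 Nlrp genes (40%), against 8 of 13 elsewhere (61.5%). In the chromosome 7 window from 14 to 15 Mb, which is not a gene-cluster window, Sult2a3, a sulfotransferase gene, was covered over 40.3% and Sult2a8 over 9.97%, while the other 2 of 4 were not met. Obox7 was the only gene counted under its list (Obox, Tdpoz and Zscan4), of genes active in early embryos, and was not met. Zscan4b, counted by symbol among the zinc finger genes instead, lay in the chromosome 7 window from 10 to 11 Mb. It met 1 domain over 18.8% of its length. Of the 30 lists, 15 had no gene in a dense window, among them serpins, kallikreins, taste receptors and clustered protocadherins.

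**Figure D3:**
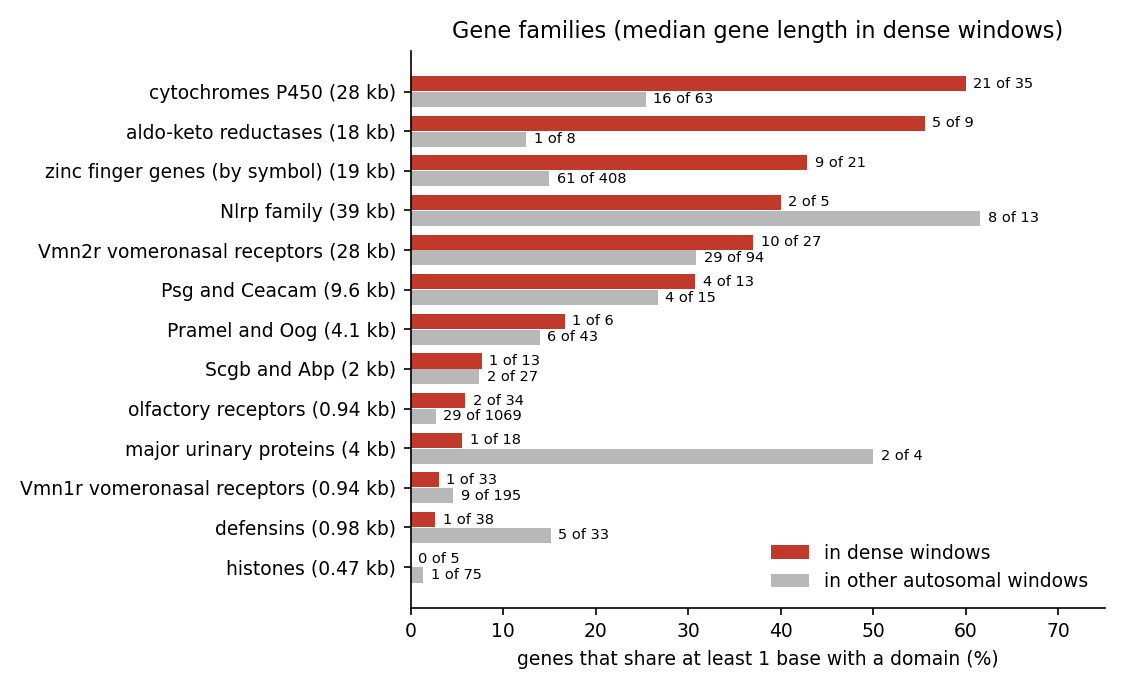
Percent of genes that share at least 1 base with a domain, for families with 5 or more genes in dense windows; red bars are genes of dense windows and grey bars genes of all other autosomal windows, with counts beside them and the median gene length in dense windows after the name. P450 genes are at 60% and Mup, Vmn1r and defensin genes at 5.56% or below in dense windows. The rule for dense windows itself raises the red bars.

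Gene length moved with these counts. In dense windows 107 of 401 protein-coding genes met a domain (26.7%), against 13.9% of all 20560 autosomal protein-coding genes; the rule itself raises this share, and nothing is read from it. Genes that met a domain had a median length of 27.4 kb and the 294 others one of 3.99 kb. Of genes under 1 kb, 5.49% were met (5 of 91), of those from 1 to 5 kb 7.95%, from 5 to 20 kb 27.5%, from 20 to 50 kb 47.9% and above 50 kb 87.5% (21 of 24). Outside dense windows the same length classes stood at 1.40, 3.08, 4.39, 12.1 and 38.2%. Median lengths were 0.939 kb for Vmn1r, 0.979 kb for defensin, 4.01 kb for Mup, 27.8 kb for P450 and 28.2 kb for Vmn2r genes of dense windows. The families with few genes met were thus the ones with short genes, and the part of length in the differences between families was not tested.

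Domain sequence in dense windows lay mainly between genes. In dense gene-cluster windows, protein-coding gene bodies took 22.8% of the length and 9.28% of the domain bases. In dense gene-poor windows the figures were 8.78 and 5.79%, and in the other dense windows 21.3 and 15.6%. All autosomal windows gave 40.9 and 17.8%. Pseudogene bodies took 4.03% of the length of dense windows and 3.96% of their domain bases, against 1.14 and 2.3% over all windows. Dense windows held a median of 6 pseudogenes, against 3 for all windows, and in gene-cluster windows the medians were 10 (dense) and 9 (all).

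The 16 gene-poor dense windows held only 11 protein-coding genes, and 7 windows held none. The window from 117 to 118 Mb of chromosome 1 had 43 domains, the most of this class, and that from 7 to 8 Mb had 40, which took 25.6% of it. Pcmtd1, the only protein-coding gene of the latter, met 1 domain over 17.4 kb (20.1%). Sntg1, which encodes a syntrophin of the dystrophin complex, runs for 941.9 kb through the next window and beyond, and met 29 domains over 11.1% of its length. B020011L13Rik was covered over 16.2%, Fam110b over 5.92%, Slc10a2, the intestinal bile acid transporter gene, over 5.44% and Ripk2 over 1.83%. Ythdf3, Osgin2 and 1700008P02Rik met none, and no gene of this class was covered over 25% or more.

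Windows of neither class included zinc finger genes and genes without a descriptive name. The chromosome 12 window from 18 to 19 Mb had 34 domains and the largest covered share of any dense window, 30.1%. Besides Zfp996, the genes LOC115488002 and Gm9241 lay wholly in domains there. In the window from 20 to 21 Mb, Gm40881 was covered over 69.7%, LOC108167368 over 31.7% and Gm10479 over 4.19%. On chromosome 13 from 66 to 67 Mb, Gm46427 lay wholly in a domain and Gm10323 was covered over 69.3%. On chromosome 5 from 104 to 105 Mb, 10 of 16 genes met a domain, among them Gm20385, which was covered over 88.0% by 2 domains, 1 of them a member of 29.4 kb (chr5:104674951-104704350). The 6 Esp genes of exocrine-gland peptides on chromosome 17 (39 to 40 Mb), named after their values were seen, met none of 30 domains.

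In 1 such window, as in other dense windows, the domains left a stretch of genes free. It spans 4 to 5 Mb of chromosome 8 and held 35 domains and 15 protein-coding genes, of which only Shcbp1 met a domain (3.04%). A stretch of 277.2 kb had no domain, the longest such gap in any dense window. Gaps over 100 kb were present in 22 of 45 dense windows, and in 8 of the 11 of neither class. The Cyp3a window of chromosome 5 had one of 239.1 kb. Named after their values were seen, Map2k7, a stress kinase gene, lay 129.6 kb from the nearest domain, Timm44, of mitochondrial protein import, 101.5 kb, and Elavl1, an RNA-binding protein gene, 52.3 kb. The median gap between the domains of this window was 7.5 kb, the smallest of the 45.

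Most dense windows had no dense window beside them, yet dense windows were more frequent among their neighbours than among all windows. The 45 dense windows formed 41 separate runs, of which 4 were pairs and none longer, so 8 of 45 windows adjoined another (17.8%). The pairs were on chromosome 1 (7 to 9 Mb, 77 domains), chromosome 3 (6 to 8 Mb, 64), chromosome 4 (60 to 62 Mb, 84) and chromosome 8 (4 to 6 Mb, 69). Only the chromosome 4 pair joined windows with the same gene family. A further 6 windows had a dense window 2 Mb away but none beside them, as at 18 and 20 Mb of chromosome 12.

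The windows beside dense ones were intermediate. The dense windows had 86 distinct flanking windows, 8 of them dense themselves, whereas 1.86% of all windows were dense. The other 78 had a median of 15 domains, with a range of 0 to 29. Of these, 23 had 20 or more (29.5%), against 9.97% of all windows that were not dense, and 17 had fewer than 10. At an offset of 10 Mb the medians were 8.5 before the dense windows (32 windows) and 12 after them (44 windows), against an autosomal median of 9. Of gene-cluster windows, 11 of 18 had fewer than 20 domains on both sides, against 4 of 16 gene-poor windows. Beside the chromosome 7 window at 10 to 11 Mb, with 36 domains, the window before it had 0.

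**Figure D4:**
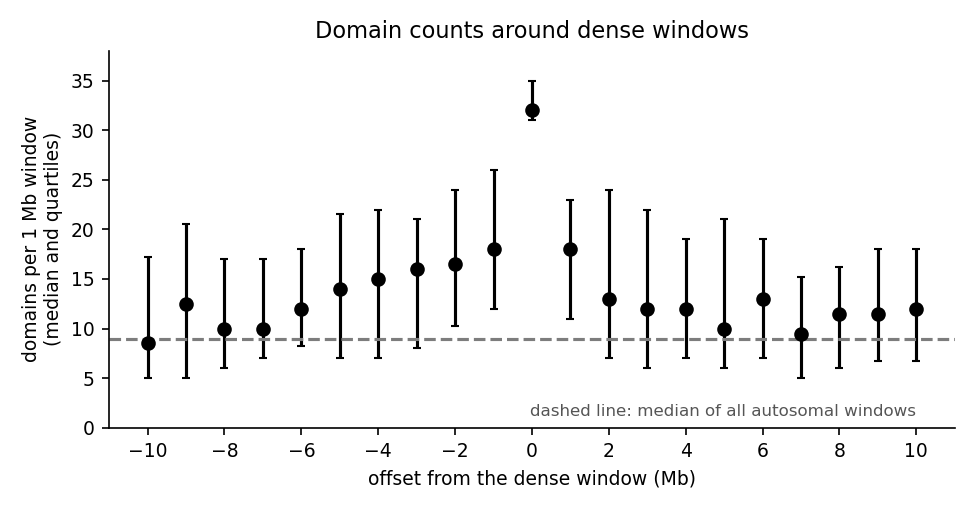
Domains per 1 Mb window (median, with bars from the lower to the upper quartile) at offsets of up to 10 Mb on either side of the 45 dense windows, with the autosomal median of 9 as a dashed line. The windows directly beside dense ones, which include 8 dense windows and count a window between 2 dense ones once on each side, have a median of 18 on each side.

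Dense windows were more frequent near the first mapped bases of chromosomes, which lie beside the centromere in the mouse. Of 190 windows between 3 and 13 Mb, 13 were dense (6.84%), and of 2223 further out 32 were (1.44%). The 13 were 28.9% of all dense windows, and 8 of them were gene-poor, 2 gene-cluster and 3 neither. The median count was 14 domains in the first group and 9 in the second. By chromosome, 7 had the most dense windows (7), and chromosomes 1, 3, 4 and 5 had 5 each. None lay on chromosomes 2, 10, 15, 16 and 18.

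Members were somewhat wider than other autosomal domains. Their median width was 3.45 kb, with quartiles of 2.10 and 6.75 kb, against 2.85 kb, with quartiles of 1.65 and 4.50 kb, for the 24223 other autosomal domains. The medians by class were 3.45 kb in gene-cluster windows, 3.38 kb in gene-poor windows and 3.75 kb in the rest. Single windows ranged from 2.10 kb (the defensin window) to 5.78 kb (chromosome 12, 20 to 21 Mb). The median was above 2.85 kb in 35 windows, equal to it in 4 and below it in 6. Width rose steadily with the count, from a median of 2.70 kb in windows of 0 to 9 domains to 3.00 kb at 20 to 24, 3.30 kb at 30 to 34 and 3.6 kb at 35 to 45.

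The difference lay mostly in the upper tail. Domains of 10 kb or wider were 187 of 1507 members (12.4%) and held 37.0% of the member bases, against 6.25% and 23.5% elsewhere. In gene-cluster windows such domains were 14.0% and held 42.0% of the bases; in gene-poor windows they were 9.38% and held 26.8%. Domains under 1 kb were 6.17% of members and 8.09% of the others. The widest member of a gene-poor window was 19.35 kb. Non-dense gene-cluster windows had a median of 3.15 kb and 9.12% of domains at 10 kb or above, between the dense ones and the rest.

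**Figure D5:**
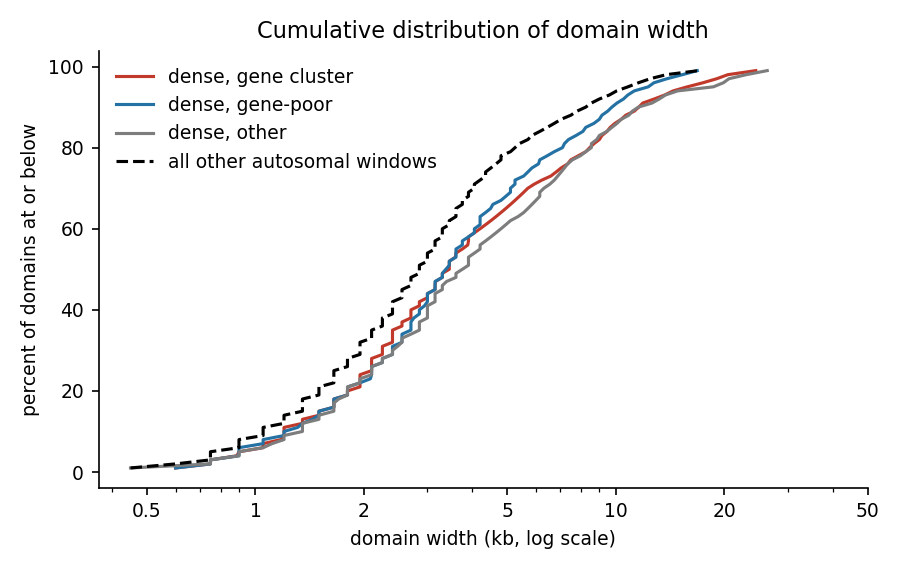
Percent of domains (y axis) at or below a given width (x axis, kb, log scale) for members in gene-cluster, gene-poor and other dense windows (solid lines) and for domains of all other autosomal windows (dashed). At the middle the solid lines lie to the right of the dashed one, with medians of 3.38 to 3.75 kb against 2.85 kb; at the 99th percentile the gene-poor line (16.8 kb) is left of the dashed one (16.95 kb).

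Together the members covered 7.76 Mb, or 17.2% of the 45 windows, against 3.99% of all other windows. Single dense windows ranged from 9.99 to 30.1%. A window below the threshold, with 30.7% covered, had the highest share of all, so many domains and much domain sequence were not the same property. Neighbouring members were separated by a median of 15.2 kb, with quartiles of 6.64 and 29.5 kb, against 37.95 kb elsewhere, and 18.8% of member gaps were under 5 kb. Gaps were shorter in gene-cluster windows (median 14.4 kb) than in gene-poor ones (17.5 kb). Of the 45 windows, 27 had a domain in every 100 kb bin, and no bin held more than 9. The rule of 30 or more domains itself favours filled bins. A gap of more than 100 kb between domains was nevertheless present in 22 of the 45. A domain in every bin was seen in 12 of 16 gene-poor windows and in 8 of 18 gene-cluster windows.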

How the data were processed

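H4K20me3 ChIP-seq of 12 samples, grouped by time from their titles, was measured by the authors, from 24 μg of chromatin to which 1.5 μg from Drosophila was added as spike-in, with 3 μg of antibody, per the labels' protocols. Bowtie2 2.3.4.1, SAMtools 1.1, deepTools and bedtools, and the builds mm10, dm6, mm9 and GRCm38, are named per the submitters' processing notes, without roles. The deposited file is a list of other values than signal: chromosome, start and end of 28210 domains, called with RSEG by the authors per the file name, with threshold and libraries not given in the sources used here. Start and end were multiples of 150 bases in 28209 domains, and domains of 1 window were never closer than 750 bases, which limits how finely they can be counted.

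Genes and promoter stretches came from RefSeq tables of GRCm38.p6; 46714 autosomal genes were used, 20560 of them protein-coding, and 328 with a start in the first 3 Mb were left out. Genes entered a window by their midpoint and met a domain by sharing at least 1 base. Promoters were aligned locally (match 2, mismatch -2, gap opening -5, extension -1). No test across samples was possible, and the planned comparison of times was not run. The members and family lists were chosen with earlier results of these data known. Named genes follow a rule: up to 3 with the largest covered share in each of the 10 densest windows, up to 4 per family, those under the 5 widest members, those of gene-poor windows covered over 25% or more, those with the promoter in a domain, and the 3 genes of the genotype. Other genes of those families and windows were added after their values were seen, to describe whole arrays. Window assignment, coverage and merging were tested on simulated data. Tools were Biopython 1.88, matplotlib 3.10.9, scipy 1.17.1, pandas 2.3.3 and numpy 2.4.6 under Python 3.11.15. Alternatives varied the threshold, the window, the domains and the class limits.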

Additional observations from a re-analysis of the deposited data

How the results depend on the processing

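No paired analysis was possible because the list names no sample. Shares of windows and genes were compared with their 95% exact binomial interval and medians with an order-statistic interval. Counts were compared with 1.5 times the reported count. For the share of length in domains, the limits were the order-statistic interval of the median over windows, 14.4 to 17.34%. The reported pooled share of 17.2% lies near the top of it. Shifting the windows by 500 kb (44 windows) or assigning domains by their start (45 windows) moved none of the 8 results beyond these limits. The number of dense windows was 129 at 25 or more domains and 13 at 35 or more, with 3735 and 499 members, so it follows the threshold. It was 6 with 400 members for 2 Mb windows of 60 or more, 190 with 3260 members for 500 kb windows of 15 or more, and 29 with 963 members without domains under 1 kb. The latter raised the median width to 3.90 kb. The share of length in domains was 13.7, 20.7, 18.3 and 18.9% at 25, at 35, for 2 Mb and without short domains, 18.2% with domains closer than 2 kb merged and 17.7% with X. Adjoining windows were 34.9% at 25 or more and 0% for 2 Mb. The gene-poor share was 0% for 2 Mb, 52.1% for 500 kb and 15.6% when it meant no protein-coding gene. The gene-cluster share was 17.4% for 500 kb, where fewer genes fit into a window, and 17.8% when 10 family members were required. Protein-coding genes met were 20.1% at 25, 20.0% at 35, 21.4% for 2 Mb, 20.8% with merging, 22.4% without short domains and 4.49% when 50% of the body had to be covered. The cause of the other shifts was not tested. Since the depth is unknown, no limit from counting error can be given.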
